A study of Mus musculus with 2 samples.

Results

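The cells described here are the RNA-rich and the RNA-poor extremes of 3 cultures of mouse muscle stem cells, each sorted into a well of its own. Separately for the wells labelled High glucose, Low glucose and Galactose, every well that held 500 or more gene counts and 250 or more detected genes was ranked by its gene counts divided by its counts of ERCC spike-ins, synthetic RNAs that serve as a yardstick of how much cellular RNA a well held. Each ranking was split into 3 groups of nearly equal size. The 117 wells at the top, called RNA-rich, and the 117 at the bottom, called RNA-poor, are the 234 wells compared, out of 354 cultured wells and 456 wells that passed in the whole study. Of each kind, High glucose gave 37 wells, Low glucose 40 and Galactose 40, and the 120 wells between them are called middle. The wells were thus chosen by measured values, the same gene counts that are described below, so all values are descriptions of these wells, without a test. A gene was carried forward only where it differed the same way in all 3 conditions, both as a share of all gene counts, given in CPM, which scales every group of wells to the same total, and after each well had been thinned to 2000 counts.

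The study measured polyadenylated RNA in single muscle stem cells isolated by FACS into 384-well plates, with a modified CEL-Seq2 protocol that tags the end of each transcript with a well barcode and a short random molecule tag. High glucose cells (25 mM glucose), Low glucose cells (5 mM glucose) and Galactose cells (10 mM galactose) were all kept for 96 h in DMEM with 1 mM pyruvate, fetal bovine and horse serum, chick embryo extract, the growth factor bFGF and antibiotics, and freshly isolated cells, labelled Quiescent, were not cultured. High glucose and freshly isolated wells shared plate 1, and Low glucose and Galactose wells shared plate 2, so each condition was measured in 1 of 2 libraries, medium and plate cannot be told apart between High glucose and the rest, and cells of one plate are not replicates of a condition. The plates used 200 well barcodes in common, of 216 on plate 1 and 241 on plate 2. No source used here gives the strain, age, sex or number of animals.

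Muscle stem cells, or satellite cells, lie dormant in adult muscle with little cytoplasm and little RNA. Once activated by injury or culture they enlarge, build ribosomes, switch on the myogenic factor Myod1 and divide as myoblasts. The amount of RNA in a cell generally follows its size and biosynthetic activity, and stress programmes such as the heat shock response, the integrated stress response and the p53 response act against growth and protein synthesis.

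In High glucose the gene counts per spike-in count ran from 70.5 through a median of 101.7 to 181.9 in RNA-rich wells, and from 7.48 through 25.8 to 42.2 in RNA-poor wells. The corresponding values were 55.5, 76.5 and 179.0 against 11.4, 26.2 and 36.5 in Low glucose, and 58.8, 75.2 and 123.8 against 11.3, 31.2 and 41.6 in Galactose. Thus the medians lay 3.94-fold, 2.92-fold and 2.41-fold apart. The wells just inside and just outside the upper limit differed little, with 70.5 and 69.7 in High glucose, 55.53 and 55.50 in Low glucose and 58.76 and 58.71 in Galactose, and the lower limits lay between 42.2 and 42.6, 36.5 and 36.8, and 41.6 and 42.5.

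The gene counts separated the groups far more than the spike-in counts did. Median gene counts per well were 11929 in RNA-rich against 3689 in RNA-poor wells of High glucose, 20182 against 6207 in Low glucose and 24389 against 7986 in Galactose. Median spike-in counts were 126 against 137, 251 against 250.5, and 289.5 against 273.5. One RNA-rich High glucose well had only 19 spike-in counts and 2193 gene counts. Without thinning, RNA-rich wells showed 2.24, 1.84 and 1.72 times as many detected genes at the median, whereas after thinning to 2000 counts the medians were 1326 against 1242 genes in High glucose, 1338 against 1316 in Low glucose and 1338 against 1308 in Galactose. Thinning left out 5 RNA-poor wells of High glucose and 1 of Galactose, which held fewer counts.

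**Figure D1:**
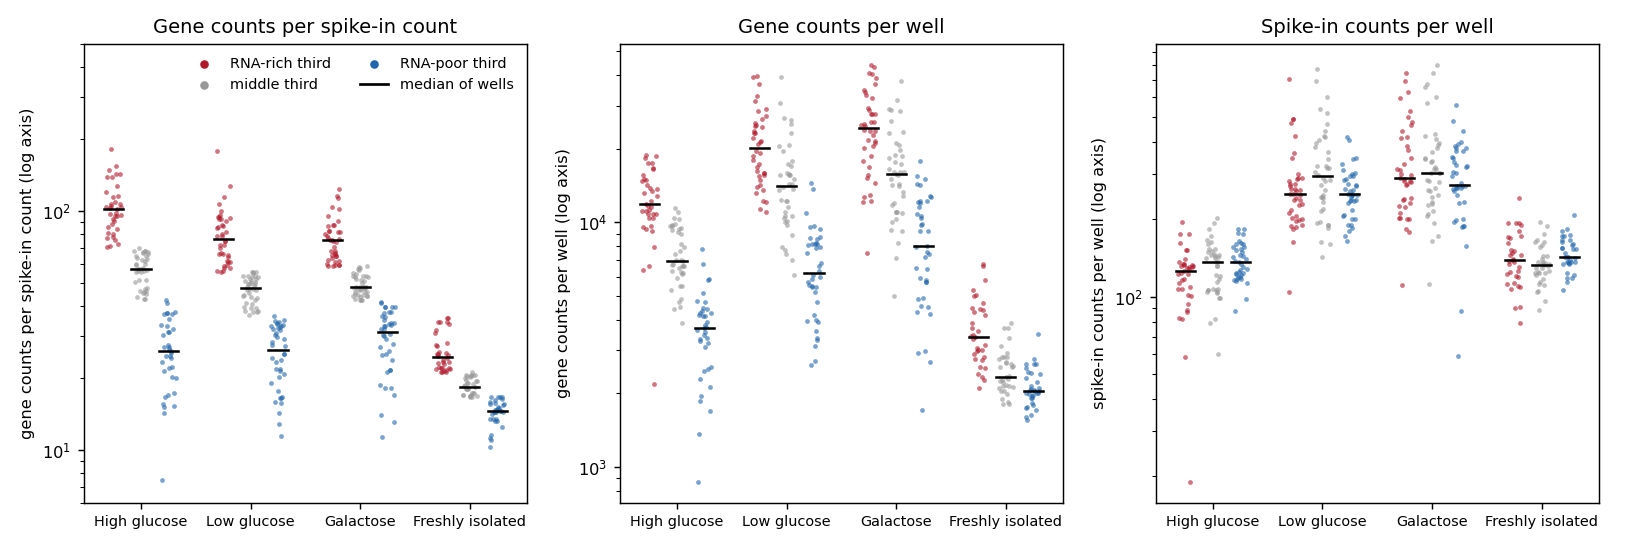
Gene counts per spike-in count (left), gene counts per well (middle) and spike-in counts per well (right), all on log axes, for every kept well by condition and group, with a black bar at the median of wells. The groups separate in the left and middle panels, and the spike-in medians differ little within a condition (126 against 137, 251 against 250.5, 289.5 against 273.5).

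Pooled RNA-rich and RNA-poor wells both carried the myogenic identity given by the labels. Myod1, which commits cells to the muscle lineage, stood at 623 against 957 CPM in High glucose, 739 against 830 in Low glucose and 855 against 824 in Galactose. Myf5, its close relative, stood at 326 against 146, 373 against 310 and 332 against 371, and Pax7, the transcription factor of satellite cells, at 60.8 against 43.8, 50.5 against 44.9 and 83.8 against 46.4. None of the 3 was called in all conditions, and Myod1 and Myf5 changed sides. Pax7 lay higher in RNA-rich wells of all 3, was called in Galactose only and was too scarce to be tested in Low glucose. Markers of other cell types were scarce: 3 or more of a single other type were detected together in 3 RNA-poor High glucose wells, 1 RNA-rich Low glucose well and 1 RNA-poor Galactose well. Summed fibroadipogenic markers stood at 67.3 CPM in RNA-rich against 278 in RNA-poor wells of High glucose, 37.5 against 26.2 in Low glucose and 30.9 against 43.5 in Galactose, and endothelial markers at 34.7 against 175, 11.7 against 7.48 and 7.98 against 14.5. Immune markers stood lower in RNA-rich wells, at 30.4 against 51.1 CPM, 35.2 against 59.8 and 44.9 against 75.4. Smooth muscle and pericyte markers ran the other way, at 213 against 183 CPM, 99.7 against 37.4 and 83.8 against 31.9. Among them Acta2, smooth muscle actin, was called higher in High and Low glucose and was too scarce to be tested in Galactose. Acta2, Des, Notch3 and Cnn1 of this list are also made by myogenic cells. The part of these markers in the differences was not tested, beyond leaving out the wells with such markers, which gave 270 higher and 183 lower genes in place of the 260 and 189 described next.

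To compare genes, counts were summed over the wells of a group and scaled to CPM. A gene was called higher in RNA-rich wells where the CPM of RNA-poor wells was at most 0.8 times its CPM there and the exact 95% interval of the ratio left out 1, and lower in the mirrored case, among genes with a mean of at least 50 CPM. The intervals cover counting error only and take no account of differences between wells. In High glucose 519 of 3955 genes were higher (13.1%) and 552 lower (14.0%), in Low glucose 666 of 3994 were higher (16.7%) and 761 lower (19.1%), and in Galactose 615 of 3971 were higher (15.5%) and as many lower (15.5%). Across all 3 conditions, 260 of 3373 genes were higher both in CPM and after thinning (7.71%) and 189 were lower (5.60%), against 274 (8.12%) and 209 (6.20%) in CPM alone. With wells ranked by gene counts alone, without the spike-ins, only 82 genes were higher and 70 lower. Of the 260 and 189 calls together 57.9% were higher, a share that became 70.2% with TMM scaling (315 higher, 134 lower), under which the median of all genes moved up by 0.12, 0.15 and 0.09 on the log2 scale. The spike-in species themselves, which the ratio used only as a sum, were called in 1 of 20 (5.00%), 0 of 25 (0.00%) and 0 of 28 (0.00%) cases.

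The genes that were higher and those that were lower were of different kinds. Of the 260 higher entries, 206 were classed as copies of other genes by name or annotated type. Of these 203 were matched by sequence to a protein-coding parent. Only 50 entries were protein-coding genes that are no copies. Processed pseudogenes, which are intronless copies of a messenger RNA pasted elsewhere in the genome, made up 180. Among all copies tested with a matched parent 203 of 705 were higher (28.8%) and 11 lower (1.56%), against 50 of 2627 (1.90%) and 173 of 2627 (6.59%) of protein-coding genes that are no copies. The reads of a transcript and of its near-identical copies cannot be told apart over most of their length, and no source used here says how reads with several matches were counted, so a copy's count is taken below as a count of its family and not as transcription of the copy.

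The 15 higher entries whose intervals lay farthest from 1 were all copies of Gapdh (Gm8055, Gm5944, Gm2445, Gm8824, Gm5652, Gm10290, Gm10313, Gm5430, Gm5523, Gm3695, Gm9619, Gm12671 and Gapdh-ps14) or of Ftl1 (Gm15590 and Ftl1-ps1). Sequences of the leading ones are shown because they tell how little distinguishes a copy from its gene. Gapdh encodes the glycolytic enzyme glyceraldehyde-3-phosphate dehydrogenase, and lies on chromosome 6 at 125161715 to 125166467 (GRCm38, minus strand). Its last 60 coding bases, stop codon included, are set here beside the same stretch of the 4 leading copies, Gm8055 on chromosome 10 at 40011866 to 40012873, Gm5944 on the X chromosome at 115458894 to 115459894, Gm2445 on chromosome 13 at 98402095 to 98403083 and Gm8824 on chromosome 16 at 50111073 to 50112062. Capitals mark bases that differ from Gapdh.
Gapdh: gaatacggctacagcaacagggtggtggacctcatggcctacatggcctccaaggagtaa
Gm8055: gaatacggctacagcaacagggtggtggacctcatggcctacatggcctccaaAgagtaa
Gm5944: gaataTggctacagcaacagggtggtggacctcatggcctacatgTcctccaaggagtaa
Gm2445: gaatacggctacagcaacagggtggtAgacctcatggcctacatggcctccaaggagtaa
Gm8824: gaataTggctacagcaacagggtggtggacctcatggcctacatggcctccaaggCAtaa
The copies differ from Gapdh at 1 to 3 of these 60 bases. Ftl1, the light chain of the iron store ferritin, lies on chromosome 7 at 45457944 to 45459884, and is shown beside its copies Gm15590 (chromosome 17, 6131854 to 6132405) and Ftl1-ps1 (chromosome 13, 74399694 to 74407346), with capitals where they differ from Ftl1.
Ftl1: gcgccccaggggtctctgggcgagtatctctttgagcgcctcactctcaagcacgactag
Gm15590: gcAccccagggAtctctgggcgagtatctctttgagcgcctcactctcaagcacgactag
Ftl1-ps1: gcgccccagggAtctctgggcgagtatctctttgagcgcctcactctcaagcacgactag
Over their whole matched length, Gm8055 was 96.0%, Gm5944 94.9%, Gm2445 97.4% and Gm8824 91.9% identical to Gapdh. Gm15590 and Ftl1-ps1 were 99.1% and 99.6% identical to Ftl1.

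All 34 Gapdh copies that could be tested were higher in RNA-rich wells of all 3 conditions. The entry for Gapdh itself held few counts, 174 CPM in RNA-rich against 21.9 in RNA-poor wells of High glucose, 161 against 26.2 in Low glucose and 145 against 40.6 in Galactose. The leading copy Gm8055 stood at 352 against 43.8 CPM, 413 against 78.5 and 401 against 104.4. Gm8055 thus differed 8.02-fold (95% interval 3.61 to 22.2), 5.26-fold (3.39 to 8.61) and 3.84-fold (2.73 to 5.56), and lay higher in RNA-rich wells in 18 of 18 plate rows. Plate rows, here and below, divide the same wells that chose the genes and are no replicates.

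Gapdh summed with its copies made up 17614 CPM of RNA-rich wells and 5319 of RNA-poor wells in High glucose, a ratio of 3.31 (95% interval 3.07 to 3.58). The sums were 16866 against 4556 CPM in Low glucose, a ratio of 3.70 (3.49 to 3.93), and 16541 against 5451 in Galactose, a ratio of 3.03 (2.89 to 3.18). Within wells of High glucose the sum ran from 4108 through a median of 14500 to 61560 CPM in RNA-rich wells, and from 0 through 1933 to 30534 in RNA-poor wells. In Low glucose it ran from 1439 through 13602 to 38476 against 0, 3391 and 13047, and in Galactose from 4386 through 17644 to 33045 against 613, 2838 and 31614. The ranges overlapped in every condition, but 37 of 37, 39 of 40 and 40 of 40 RNA-rich wells lay above the median of the RNA-poor wells. A single RNA-poor well gave 15.9% of the RNA-poor High glucose sum and another 24.3% of the Galactose sum.

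Ftl1 summed with its copies, all 8 of which were higher where tested, stood at 6483 against 1980 CPM in High glucose, 10612 against 3558 in Low glucose and 7537 against 3110 in Galactose, ratios of 3.27 (2.89 to 3.72), 2.98 (2.79 to 3.19) and 2.42 (2.27 to 2.59). Its well medians were 6028 against 2187 CPM, 11004 against 2430 and 6558 against 2262. Nme2, a nucleoside diphosphate kinase, stood 3.71-fold, 2.27-fold and 2.29-fold higher with its copies. Counted in this way, a gene with its copies as 1 family, 96 of 2769 families were higher (3.47%) and 199 lower (7.19%) in all 3 conditions in CPM, so the excess of higher entries over lower ones among single entries was not seen among families. The sums may hold a read more than once if reads with several matches were counted at each of them.

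Genes of the protein synthesis machinery made up 31 of the 96 higher families, counting ribosomal proteins alone. Cytosolic ribosomal proteins are the protein subunits of the ribosome. Of their 72 families, 31 were higher in all 3 conditions and 0 lower, beside 3.47% and 7.19% of all families. The ribosomal protein families had median ratios of 1.36, 1.52 and 1.30. Together these families made up 18.8% of gene counts in RNA-rich against 13.0% in RNA-poor wells of High glucose, 20.4% against 13.9% in Low glucose and 18.7% against 14.1% in Galactose. In Low glucose 21 of 40 RNA-rich wells lay above the highest RNA-poor well, against 5 of 37 in High glucose and 2 of 40 in Galactose. The sum for Rps2, a small-subunit protein, with its copies stood at 26638 against 16820 CPM, 22843 against 14861 and 20750 against 14213, and that for Rpsa, the laminin receptor and ribosomal protein SA, at 16972 against 7182, 14026 against 7812 and 13083 against 6702. Counted as single genes, 16 of 63 listed ribosomal protein genes were higher in all 3 and 0 were lower. Among protein-coding genes that are no copies the shares were 1.90% and 6.59%. Median log2 ratios over the listed genes tested were 0.39, 0.56 and 0.36 in High glucose, Low glucose and Galactose. Over all genes tested they were 0.04, -0.11 and -0.04. Copies of ribosomal protein genes accounted for 113 of the 260 higher entries.

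**Figure D2:**
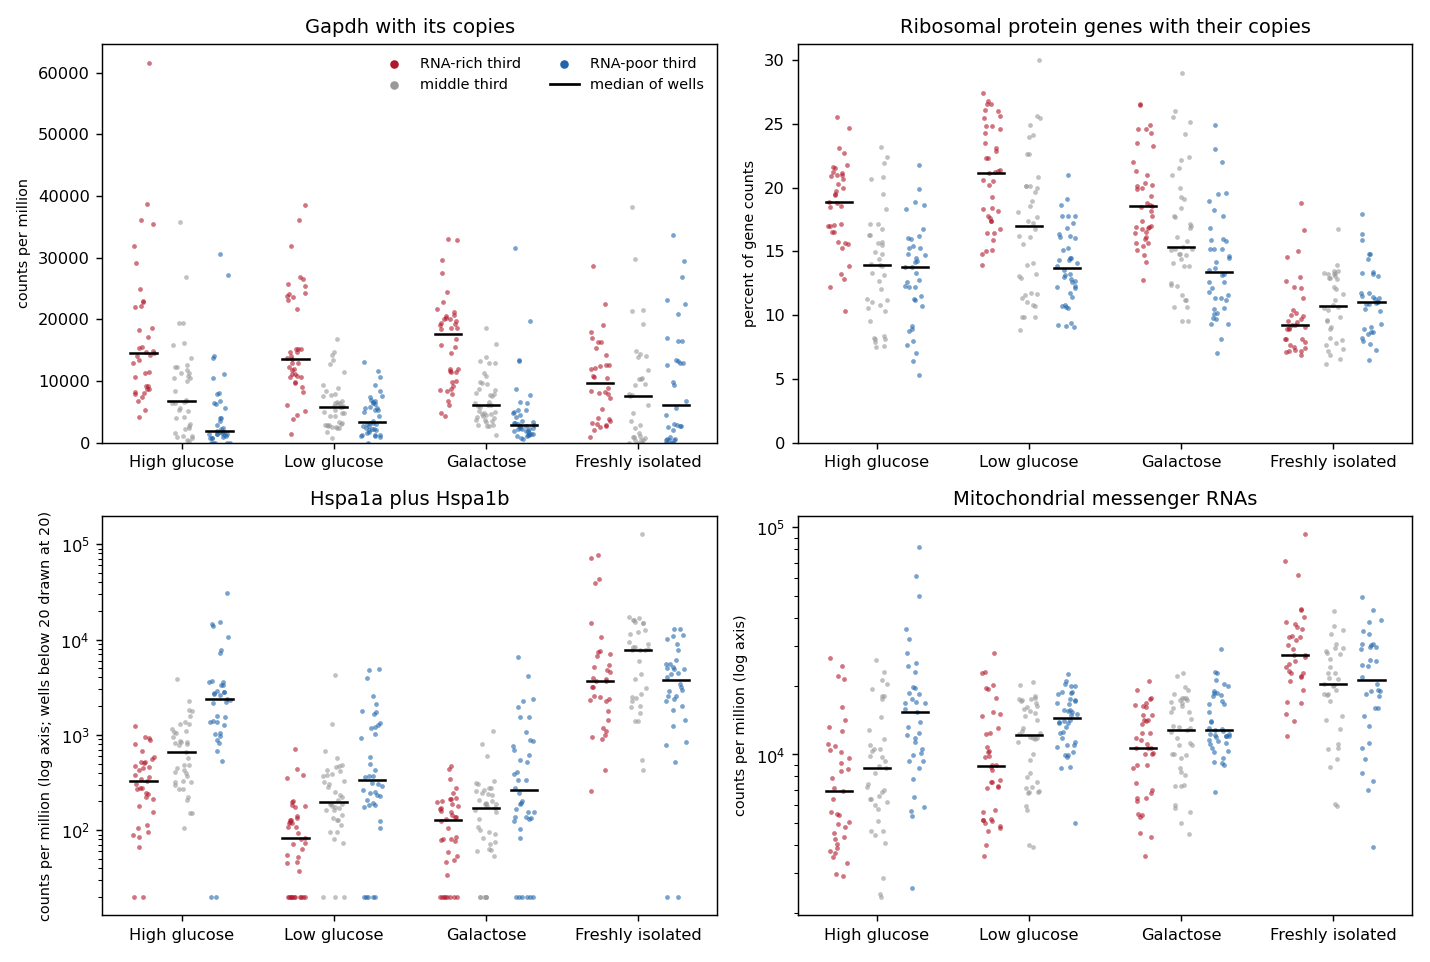
Level in every kept well of Gapdh with its copies (CPM), ribosomal protein genes with their copies (percent of gene counts), Hspa1a plus Hspa1b (CPM, log axis, wells below 20 drawn at 20) and mitochondrial messenger RNAs (CPM, log axis), by condition and group, with bars at the median of wells. The upper panels fall from RNA-rich to RNA-poor in the 3 cultures and the lower panels rise; in the freshly isolated wells at the right the median falls for Gapdh as in culture, and the other panels differ in order from culture.

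Among translation factors, which load, move and release the ribosome, 4 of 33 were higher and 2 lower in all 3 conditions, the latter a share near that of all genes (5.60%). Eef1a1, which delivers aminoacyl-tRNA, ran from 2024 through 5575 to 11261 CPM in RNA-rich wells of High glucose and from 0 through 3241 to 8910 in RNA-poor wells, with ranges that overlapped. Its pooled ratio was 1.67 (1.51 to 1.85), 1.57 (1.46 to 1.69) and 1.52 (1.42 to 1.62). Eef2, which moves the ribosome along the message, had well medians of 2453 against 1169 CPM, 2414 against 1363 and 2382 against 1224, and ratios of 1.99, 1.77 and 1.78. Eef1g and Eif3f were higher as well, at 2.21, 1.67 and 1.60 times and 2.06, 1.68 and 1.66 times, whereas Eif3c and Eif5b, both initiation factors, were lower at 0.65, 0.72 and 0.76 times and 0.66, 0.79 and 0.76 times. Of 34 listed ribosome biogenesis genes tested, Dkc1, the pseudouridine synthase of ribosomal RNA, was the single gene higher in all 3 (1.95, 2.19 and 2.11 times) and 0 were lower. Among protein-coding genes that are no copies the shares were 1.90% higher and 6.59% lower.

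Outside translation, the higher protein-coding genes, singled out after their kind had been seen, included metabolic and surface genes. Plin2, which coats lipid droplets, ran from 0 through a median of 433 to 1442 CPM in RNA-rich wells of High glucose and from 0 through 0 to 296 in RNA-poor wells. In Low glucose its medians were 276 and 0 CPM and in Galactose 348 and 35.1. Plin2 was detected in 36 of 37, 39 of 40 and 40 of 40 RNA-rich wells against 10 of 37, 17 of 40 and 20 of 40 RNA-poor wells, and its pooled ratios were 6.98 (3.73 to 14.8), 2.81 (1.97 to 4.13) and 3.24 (2.29 to 4.70). After thinning to 2000 counts, 23 of 37 against 5 of 32 High glucose wells held a count of Plin2, which is 62.2% (exact interval 44.8% to 77.5%) against 15.6% (5.28% to 32.8%).

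Cd34, a surface glycoprotein used to sort satellite cells, stood at 391 against 87.7 CPM, 379 against 120 and 317 against 151, ratios of 4.46 (2.49 to 8.78), 3.17 (2.20 to 4.71) and 2.10 (1.56 to 2.88). It was the single gene of 6 tested stem cell surface genes that was higher in all 3, and 0 were lower. Among protein-coding genes that are no copies, 1.90% were higher in all 3. Of 8 listed glycolysis genes tested in all 3, 4 were higher and 0 lower: Gapdh, Pgk1 (1.5, 1.33 and 1.77 times), Pgam1 (1.79, 1.29 and 1.38 times) and Ldha, lactate dehydrogenase A (2.14, 1.64 and 1.62 times). Further higher genes were Lgals1, which encodes galectin 1 (2.33, 2.81 and 1.66 times), the nuclear transport GTPase Ran (1.87, 1.62 and 1.90 times), Cad, which starts pyrimidine synthesis (3.34, 2.35 and 1.87 times), and Tnfrsf11a, the receptor RANK (2.90, 5.86 and 1.66 times). Pools of RNA-poor wells held few counts of the last pair, 29.2 CPM of Cad and 65.8 CPM of Tnfrsf11a in High glucose.

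**Figure D3:**
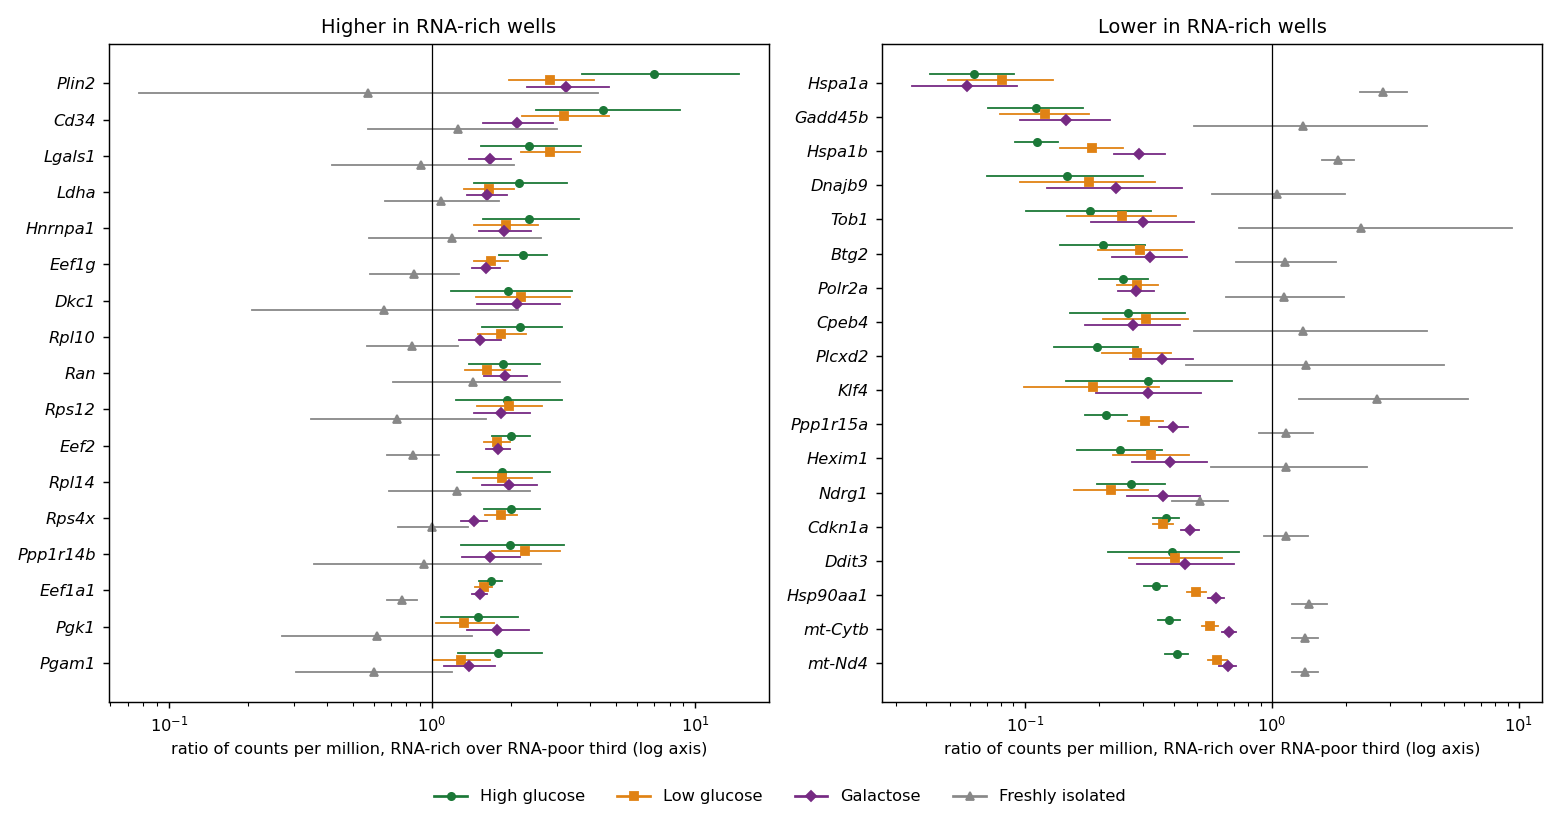
Ratio of CPM in RNA-rich over RNA-poor wells (log axis) with its exact 95% interval, counting error only, for genes higher (left) and lower (right) in RNA-rich wells of the 3 cultures, with freshly isolated wells in grey. Coloured intervals lie on one side of 1 in each panel, while grey intervals include 1 or lie on its other side, except for Ndrg1.

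Stress genes led the lower group. Hspa1a, an inducible HSP70 chaperone, had the ratios farthest from 1, with 71.6 against 1154 CPM in High glucose, 27.0 against 333 in Low glucose and 20.9 against 360 in Galactose. The ratios were 0.062 (0.041 to 0.091), 0.081 (0.049 to 0.13) and 0.058 (0.035 to 0.093), and Hspa1a lay lower in RNA-rich wells in 18 of 18 plate rows. The Hspa1a gene (chromosome 17, 34969190 to 34972156, minus strand) and its near-identical neighbour Hspa1b (34956436 to 34959238) can share reads that the counting may have split, so the pair was also summed. In RNA-rich wells of High glucose the sum ran from 0 through 325 to 1252 CPM, and in RNA-poor wells from 0 through 2352 to 30957. In Low glucose it ran from 0 through 81.9 to 714 against 0, 336 and 4920, and in Galactose from 0 through 129 to 468 against 0, 261 and 6606. The ranges overlapped, with 35 of 37, 35 of 40 and 31 of 40 RNA-poor wells above the RNA-rich median. The wells were uneven: 1 RNA-poor Galactose well held 33.6% of the counts of its group.

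After thinning to 2000 counts, Hspa1a was detected in 6 of 37 RNA-rich against 20 of 32 RNA-poor wells of High glucose, 16.2% (exact binomial interval over wells 6.19% to 32.0%) against 62.5% (43.7% to 78.9%). In Low glucose it was detected in 4 of 40 against 16 of 40 and in Galactose in 2 of 40 against 15 of 39. Of 10 cytosolic heat shock genes tested, Hspa1a, Hspa1b and Hsp90aa1, the inducible HSP90, were lower in all 3 and 0 were higher. Of protein-coding genes that are no copies, 6.59% were lower in all 3 and 1.90% higher. Hsp90aa1 stood at 0.34, 0.50 and 0.59 times its RNA-poor level, whereas its constitutive relative Hsp90ab1 stood at 0.91, 0.81 and 0.86 times and was not called.

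The 250 bases upstream of Hspa1a and of Ppp1r15a, from RefSeq (GRCm38.p6), are shown because both genes stand for a stress response with a known DNA element. For Hspa1a (chr17:34972157-34972406, minus strand) capitals mark the letters GAANNTTC, the core of the heat shock element bound by HSF1, found once, 104 bases before the start. Hspa1b holds the same letters at the same place, and the 2 windows match at 247 of 250 bases. For Ppp1r15a (chr7:45526269-45526518, minus strand), which encodes the phosphatase subunit GADD34, capitals mark TGACGTCA, the cAMP response element, 12 bases before the start.
Hspa1a: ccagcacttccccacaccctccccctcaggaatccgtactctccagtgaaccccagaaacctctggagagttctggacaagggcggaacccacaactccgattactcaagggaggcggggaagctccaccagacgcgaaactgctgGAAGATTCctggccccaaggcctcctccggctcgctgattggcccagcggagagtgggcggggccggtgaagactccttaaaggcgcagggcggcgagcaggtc
Ppp1r15a: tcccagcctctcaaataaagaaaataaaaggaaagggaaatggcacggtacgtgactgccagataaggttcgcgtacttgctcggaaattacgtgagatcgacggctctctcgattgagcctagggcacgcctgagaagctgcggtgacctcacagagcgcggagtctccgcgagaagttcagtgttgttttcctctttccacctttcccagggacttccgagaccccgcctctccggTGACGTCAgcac
Windows were found for 139 of 189 lower and 40 of 260 higher entries, and both strands were searched. GAANNTTC, a palindrome, was present in 7.19% of the lower, 7.50% of the higher and 6.48% of all 2130 tested genes with a window, and in 7.73% of all 27025 genes of the table. TGACGTCA was present in 5.76%, 7.50%, 3.76% and 1.77%, CCAAT in 51.8%, 37.5%, 38.6% and 37.5%, and GGGCGG, the GC box, in 74.8% of the lower genes, 24 of 40 higher genes, 70.1% of tested genes and 35.4% of all genes. The heat shock letters were thus about as common in the windows of lower genes as in those of higher or of all tested genes.

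Some early response and growth arrest genes were lower as well. Gadd45b, a stress sensor, stood at 65.1 against 585 CPM, 39.9 against 329 and 34.9 against 238, ratios of 0.11 (0.071 to 0.17), 0.12 (0.080 to 0.18) and 0.15 (0.097 to 0.22), and lay lower in RNA-rich wells in 18 of 18 plate rows. Of 14 immediate early genes, which cells transcribe within minutes of a stimulus, 7 were lower in all 3 and 1, Ier3, was higher (2.10, 1.59 and 1.46 times). The lower members were Gadd45b, Btg2 (0.21, 0.29 and 0.32 times), Klf4 (0.32, 0.19 and 0.32 times), Ier5, Fosl1 (0.58, 0.57 and 0.57 times), Jun (0.57, 0.66 and 0.72 times) and Jund. The list's median log2 ratio over the members tested was -1.05, -0.60 and -0.55 in High glucose, Low glucose and Galactose. Beside its 7 lower members stands a share of 6.59% lower in all 3 among protein-coding genes that are no copies.

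Cdkn1a, the cell cycle inhibitor p21 and a p53 target, was detected in all 117 RNA-rich and all 117 RNA-poor wells. It ran from 277 through 1341 to 3138 CPM in RNA-rich wells of High glucose and from 515 through 3646 to 9135 in RNA-poor wells, from 307 through 986 to 2466 against 1223, 3265 and 6689 in Low glucose, and from 347 through 1240 to 2522 against 1179, 2878 and 6170 in Galactose. Its pooled ratios were 0.37 (0.33 to 0.42), 0.36 (0.33 to 0.40) and 0.47 (0.43 to 0.51), lower in 18 of 18 plate rows, with the middle wells between at 2283, 2394 and 2340 CPM. Of 15 p53 targets tested, 5 were lower in all 3 (Cdkn1a, Ccng1, Trp53inp1, Eda2r and Btg2) and 1, Tnfrsf11a, was higher. Btg2 is counted among the immediate early genes as well. The share lower in all 3 was 6.59% among protein-coding genes that are no copies. Mdm2, the ubiquitin ligase that restrains p53, changed sides: it stood at 1.35 times in High glucose but at 0.70 in Low glucose and 0.57 in Galactose. Ccnd1, cyclin D1, which drives entry into the cell cycle, stood at 1.63 (0.76 to 4.02), 1.80 (1.27 to 2.59) and 1.83 (1.37 to 2.49) times.

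By the integrated stress response cells slow translation when amino acids run short or proteins misfold. Of its 10 tested genes, 6 were lower in all 3 and 0 higher, beside 6.59% and 1.90% of protein-coding genes that are no copies. Its central factor Atf4 stood at 0.61, 0.66 and 0.77 times, its partner Ddit3 at 0.40, 0.41 and 0.45, the serine synthesis enzyme Psat1 at 0.29, 0.58 and 0.59 and the amino acid transporter subunit Slc3a2 at 0.43, 0.63 and 0.59, with Cebpb and the secreted factor Gdf15 lower as well. Ppp1r15a, which reverses the translational block, ran through well medians of 357 against 1791 CPM, 308 against 1099 and 417 against 1127, ratios of 0.21 (0.18 to 0.26), 0.31 (0.26 to 0.36) and 0.40 (0.35 to 0.46). Dnajb9, an endoplasmic reticulum co-chaperone, was the single one of 9 tested genes of that compartment lower in all 3, at 0.15, 0.18 and 0.23 times. Ubb, which encodes ubiquitin, was lower also, at 0.41, 0.53 and 0.64 times.

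Among the lower genes named by the size of their difference, several act in transcription, for which no list was counted. Polr2a, the large subunit of RNA polymerase II, had well medians of 268 against 938 CPM in High glucose, 230 against 602 in Low glucose and 235 against 857 in Galactose, and ratios of 0.25 (0.20 to 0.31), 0.29 (0.24 to 0.35) and 0.28 (0.24 to 0.33). Hexim1, which holds the elongation factor P-TEFb inactive, stood at 0.24, 0.32 and 0.39 times, and the chromatin reader Brd2 at 0.43, 0.53 and 0.49 times. Of 36 splicing and hnRNP genes tested 7 were lower, among them Hnrnpc (0.44, 0.53 and 0.68 times), Sf3b1 (0.60, 0.60 and 0.66 times) and U2af2 (0.43, 0.59 and 0.64 times), and 1, Hnrnpa1, was higher (2.33, 1.90 and 1.89 times). The shares among protein-coding genes that are no copies were 6.59% lower and 1.90% higher. Cpeb4, which regulates poly(A) tails, Tob1 and Btg2, antiproliferative partners of the deadenylase complex, and the deacetylase Sirt1 (0.19, 0.30 and 0.41 times) were lower too. Cpeb4 stood at 0.26, 0.31 and 0.27 times and Tob1 at 0.18, 0.25 and 0.30 times.

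Gm42418 and Gm26917, neighbouring loci on chromosome 17, were lower in RNA-rich wells. Gm42418, a locus that collects ribosomal RNA reads, stood at 32496 against 54302 CPM, 20237 against 32413 and 17235 against 31309, ratios of 0.60, 0.62 and 0.55, and Gm26917 at 0.18, 0.27 and 0.20 times. Of 11 tested mitochondrially encoded transcripts, 4 were lower in all 3 and 0 higher: mt-Cytb, of respiratory complex III, at 0.38, 0.56 and 0.67 times, mt-Nd4 at 0.41, 0.60 and 0.66, mt-Nd1 at 0.54, 0.72 and 0.76 and mt-Nd2 at 0.50, 0.76 and 0.74, the last 3 of complex I. Mt-Rnr2, the large mitochondrial ribosomal RNA, stood at 0.81, 0.99 and 0.95 times and was not called. Over all genes tested, 5.60% were lower in all 3. In Low glucose, and likewise in Galactose, 3 transcripts of this list were higher and 4 lower. All mitochondrial transcripts together made up 1.34% of gene counts in RNA-rich against 2.29% in RNA-poor wells of High glucose, 1.80% against 2.13% in Low glucose and 1.81% against 2.12% in Galactose. Well quality measures thus moved with the grouping, and their part in the other differences was not tested.

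Several large lists showed little or no difference that held in all conditions. Of 29 proteasome genes tested 0 were higher and 0 lower in all 3, of 38 nuclear genes of oxidative phosphorylation 1 was higher (Ndufa9) and 0 lower, and of 4 myogenic factors 0 were called in either direction. Of 4 S phase genes tested in all 3, 2 were lower and 0 higher, among them Pcna, the replication clamp (0.39, 0.42 and 0.80 times), and of 3 G2/M genes 1 was lower, the tubulin gene Tubb4b (0.72, 0.73 and 0.59 times), and 0 were higher. Few of the 27 S phase and 27 G2/M genes in the tables reached 50 CPM, but the sums of both lists were lower in RNA-rich wells of all 3. S phase genes summed to 764 CPM in RNA-rich against 1271 in RNA-poor wells of High glucose. In Low glucose the S phase sums were 757 against 1398 CPM and in Galactose 1047 against 1245. G2/M genes summed to 831 against 1235 CPM, 690 against 946 and 764 against 1381. Whether the wells differed in cycling was not tested. Among protein-coding genes that are no copies, 6.59% were lower in all 3. Actb, beta-actin, stood at 1.26, 1.05 and 0.98 times as a single entry and at 1.53, 1.27 and 1.14 times with its copies, of which all 4 tested were higher. Lists of quiescence and matrix genes lay lower in High glucose, with median log2 ratios of -1.39 in High glucose against -0.29 and -0.11 for the former and -1.02 against 0.05 and 0.11 for the latter.

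Other genes of interest in muscle stem cells were not called in all 3 conditions. Spry1, which dampens growth factor receptors, stood at 0.28 times in High glucose but at 0.72 in Low glucose and 0.93 in Galactose. Ccl2, a chemokine, stood at 2.17, 0.64 and 1.03 times, the chromatin protein gene Hmga2 at 1.05, 0.63 and 0.89 times, and the nuclear long noncoding RNA Malat1 at 0.99, 0.81 and 0.80 times. Txnip, which limits glucose uptake, stood at 0.63, 0.53 and 0.55 times, and the adhesion molecule Vcam1, under 50 CPM in High glucose, at 1.19, 2.88 and 3.01 times. Meg3, an imprinted noncoding RNA, had 6 counts in RNA-rich and 14 in RNA-poor wells of High glucose, and Tnnt2, a troponin of differentiating muscle, 0 and 1. Among the genes lower in all 3 were also Plcxd2 (0.20, 0.28 and 0.36 times) and Gm23935, annotated as a miRNA locus (0.20, 0.24 and 0.33 times).

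A broader pattern, seen in every culture and largest in High glucose, stood beside that of the quiescence list. The 180 genes that stood at 100 CPM or more in freshly isolated wells and at least 5 times higher there than in Low glucose summed to 9766 CPM in RNA-rich, 13387 in middle and 25113 in RNA-poor wells of High glucose, which share their plate with the freshly isolated wells. In Low glucose the sums were 6397, 7291 and 10069 CPM, and in Galactose 6566, 6965 and 8509. Low levels in Low glucose chose the list, so the lower sums there than in High glucose were partly set by that choice. Of these genes, 64 of 85 tested were lower in RNA-rich High glucose wells, against 26 of 49 in Low glucose and 18 of 43 in Galactose, beside 14.0%, 19.1% and 15.5% of all genes tested. Whether counts of High glucose wells include transcripts of the freshly isolated wells on their plate was not tested, which bears on these sums and on the High glucose values of heat shock and quiescence genes. Plate and medium cannot be told apart in this comparison.

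Per spike-in count the picture was different. When counts were scaled by the summed spike-ins of each group instead of by gene counts, the median of all tested genes moved up by 1.94, 1.58 and 1.33 in High glucose, Low glucose and Galactose on the log2 scale. All 260 higher entries had intervals above 1 in all 3 conditions, with median ratios of 8.19, 5.73 and 4.40. The 189 lower genes had median ratios of 1.84, 1.67 and 1.58 on this scale, and 118 had intervals above 1 in all 3. Only 13 lay below 1 in all 3, and 3 had intervals below 1 in all 3. Hspa1a stood at 0.24, 0.24 and 0.15 times its RNA-poor level per spike-in, and Gadd45b at 0.43, 0.36 and 0.37 times, whereas Cdkn1a stood at 1.43, 1.09 and 1.18 times. Since the wells were ranked by gene counts per spike-in count, this scaling adds the chosen difference to every gene, so these counts describe the ranking and support nothing.

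**Figure D4:**
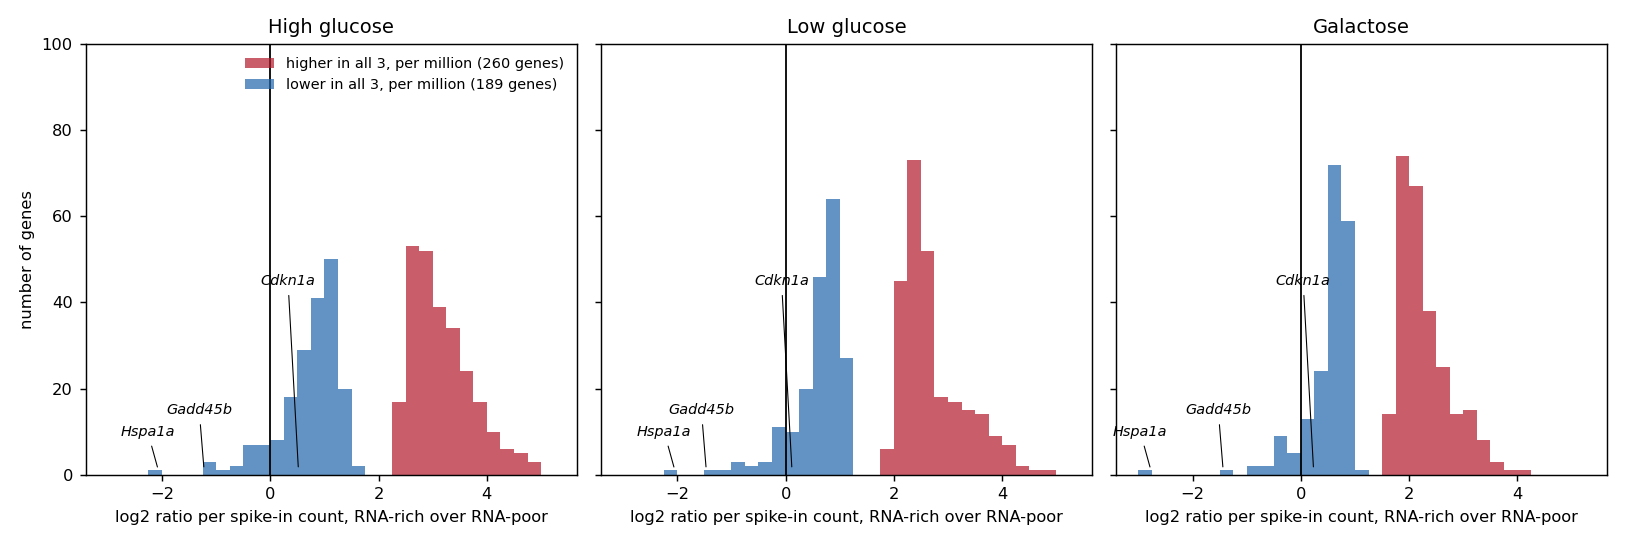
Distribution of log2 ratios per spike-in count, RNA-rich over RNA-poor wells, for the 260 entries higher (red) and the 189 genes lower (blue) in CPM in all 3 conditions, with a line at no difference. Most blue genes lie to the right of the line, Hspa1a and Gadd45b to its left.

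The middle wells mostly fell between the extremes. Their CPM lay between those of RNA-rich and RNA-poor wells in all 3 conditions for 194 of 260 higher and 118 of 189 lower genes, and in at least 1 condition for all 260 and for 188 of 189. The middle wells did not enter the comparison, but they belong to the same ranking. Across the 18 plate rows, 6 in each condition, the median higher entry went the same way in 17 rows and the median lower gene in 16. The direction held in all rows compared for 82 higher and 38 lower genes, and in at least 13 and 10 rows. The rows divide the same wells whose pooled counts chose these genes. Agreement among rows was thus largely set by that choice and is no replication.

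Most calls rested on the spike-ins in the ranking. Without the spike-ins, 79 of the 260 higher and 62 of the 189 lower genes were still called. Ranked by gene counts alone, the RNA-rich group kept 30 of 37 wells in High glucose, 27 of 40 in Low glucose and 29 of 40 in Galactose, and the RNA-poor group 32, 34 and 28. Of 87 named genes called in all 3 conditions, 34 were then no longer called. Among higher genes these were Eef2, Eef1a1, Eef1g, Eif3f, Rps4x, Rpl10, Rpl14, Rps12, Ppp1r14b, Pgk1, Cad, Tnfrsf11a and Ndufa9. Among lower genes they were Hspa1b, Jun, Jund, Fosl1, Csrnp1, Slc3a2, Psat1, Atf4, Ccng1, Pcna, Tubb4b, Hnrnpc, Sf3b1, U2af2, Srsf2, Cfl1, Eif5b, mt-Cytb, mt-Nd4, mt-Nd1 and mt-Nd2.

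Freshly isolated wells, ranked and divided in the same way into 34 RNA-rich, 34 middle and 34 RNA-poor wells, shared few of the calls seen in culture. Their gene counts per spike-in count spanned less, with medians of 24.5 against 14.6, and 121 of 3548 genes were higher (3.41%) and 133 lower (3.75%). Of the 233 genes higher in culture that could be tested there, 10 were higher and 9 lower, with a median ratio of 0.91 beside 0.95 over all genes tested. Of the 181 genes lower in culture, 21 were higher and 14 lower, with a median ratio of 1.09. The freshly isolated wells are shallower, with a median of 3411 gene counts in RNA-rich and 2038 in RNA-poor wells, and fewer genes were called there in either direction.

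Individual genes differed in whether they kept their direction. Ndrg1 was lower in RNA-rich wells of all 4 conditions, at 0.27, 0.22 and 0.36 times in culture and 0.51 times (0.39 to 0.67) in freshly isolated wells. Gapdh with its copies stood at 9829 against 9258 CPM in freshly isolated wells, a ratio of 1.06 (0.97 to 1.17), but its well medians were 9649 against 6132 CPM, with 23 of 34 RNA-rich wells above the RNA-poor median, the same direction as in culture. The Eef1a1 entry stood at 0.77 (0.67 to 0.88). Ribosomal protein genes with their copies had well medians of 92064 CPM in RNA-rich and 110308 in RNA-poor freshly isolated wells, the opposite order to culture. Hspa1a stood at 2.83 times (2.28 to 3.54), but its sum with Hspa1b had nearly equal well medians, 3641 against 3720 CPM, and a single RNA-rich well held 25.6% of the group's counts of the pair.

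**Figure D5:**
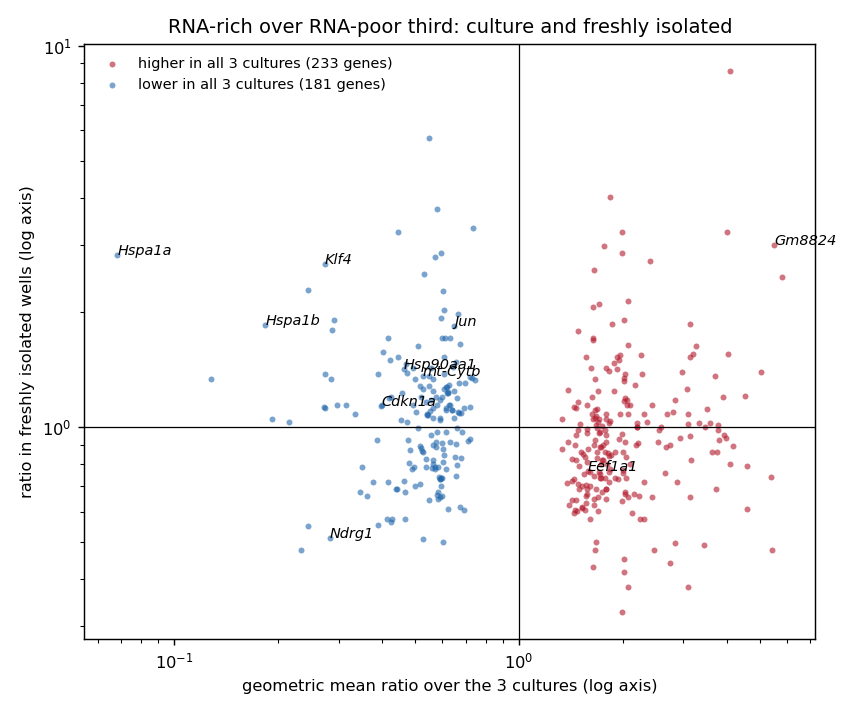
Ratio of CPM in RNA-rich over RNA-poor wells for genes higher (red) or lower (blue) in all 3 cultures: geometric mean over the cultures (x, log axis) against freshly isolated wells (y, log axis), for 233 and 181 genes tested there. Points scatter on both sides of 1 on the vertical axis, with medians of 0.91 and 1.09.

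The structure of the genes, which played no part in the ranking, was compared for protein-coding genes that are no copies. The 50 higher genes had a median span of 6.50 kb in the annotation (quartiles 3.25 and 15.2), the 173 lower genes 15.8 kb (6.65 and 35.1) and all 2627 tested genes 21.8 kb (10.3 and 45.9). Median longest-transcript lengths were 1714.5 bases, 3029 bases and 3103 bases in the same order, and median exon numbers 7, 8 and 10. Single-exon transcripts numbered 0 of 50, 12 of 173 and 53 of 2627. Ribosomal protein genes are among the 50 higher genes, and their part in these values was not tested.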

How the data were processed

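The deposited tables hold raw counts per gene and well, and the deposited well sheet gives each well's condition. Collapsing by molecule tag, aligner, counter and genome build were not given in the sources used here. Only edgeR is named, per the submitters' processing notes. Gene symbols came from GENCODE M21 (GRCm38) for 21132 of 21216 identifiers (99.6%). Copies were matched to parents with blastn 2.17.0 at 85% identity over at least 50% of their length. Counts were summed over wells and scaled to CPM. Ratios have exact conditional (Clopper-Pearson) 95% intervals, and log2 ratios a pseudocount of 1 CPM. Shares of wells have exact binomial 95% intervals over the wells of 1 library, which are not replicates. Thinning took 20 seeded draws to 2000 counts per well. Scripts (Python 3.11.15, scipy 1.17.1, edgeR 4.0.16 for TMM factors) were tested on simulated data. With 1 library per condition, no test between wells was run. No doublet caller was run. The genes named are the 15 higher and the 15 lower whose interval bounds lay farthest from 1, up to 4 per gene list, and a set of muscle stem cell genes. The members, lists and named genes were chosen with earlier results of these data known. Alternatives cover the ranking, group width, scaling, filters and thinning. A few results that need withheld items are not reported here.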

Additional observations from a re-analysis of the deposited data

Results flagged for a closer look

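In the cultures 11 named genes were called in one direction and in freshly isolated wells in the other, by the same ratio and interval. Of all genes higher in culture, 9 of 233 tested in freshly isolated wells were lower there and 10 higher. Of those lower in culture, 21 of 181 were higher there and 14 lower. Over all genes tested in freshly isolated wells, 3.41% were higher and 3.75% lower. The difference between cultured and freshly isolated wells was not tested. Eef1a1 was higher in RNA-rich cultured wells and stood at 0.767 times in freshly isolated ones. Lower in culture but higher in RNA-rich freshly isolated wells were Hspa1a at 2.83 times, Hspa1b at 1.85, Hsp90aa1 at 1.42, Klf4 at 2.67, Jun at 1.84, Eif5b at 3.32, mt-Nd4 at 1.36, mt-Cytb at 1.36, mt-Nd1 at 1.31 and mt-Nd2 at 1.48 times. For Hspa1a and Hspa1b summed, the well medians were nearly equal there, and 1 RNA-rich well held 25.6% of the group's counts.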

How the results depend on the processing

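Results were computed under 26 alternatives, 3 of them chosen after seeing the data. The counts, 260 higher and 189 lower, stayed within 1.5 times except as follows. Ranking wells by gene counts alone gave 82 and 70, of which 79 and 62 were among the genes above, and ended the call of 34 of the 87 named genes called; the cause was not tested. A minimum ratio of 1.5 gave 168 and 108, and scaling by summed spike-ins 3439 and 3. Of the alternatives chosen after seeing the data, summing each gene with its copies gave 96 higher, protein-coding genes that are no copies gave 50 higher, and Low glucose and Galactose alone, with fewer conditions to meet, gave 424 and 330. Without thinning, RNA-rich wells had 2.24, 1.84 and 1.72 times as many detected genes. Under spike-in scaling, which by construction adds the difference in gene counts per spike-in to every gene, 32 lower named genes turned to higher, with mean log2 ratios over the conditions of Cdkn1a 0.29, Gm42418 0.86, mt-Cytb 0.69, mt-Nd4 0.75, Hsp90aa1 0.51, Jun 0.99, Fosl1 0.81, Ddit3 0.35, Slc3a2 0.73, Psat1 0.50, Atf4 1.06, Trp53inp1 0.20, Ccng1 0.95, Pcna 0.64, Hnrnpc 0.74, Sf3b1 0.93, U2af2 0.75, Srsf2 1.01, Brd2 0.56, Vegfa 0.67, Ubb 0.68, Cfl1 0.93, Cebpb 0.93, Eda2r 0.42, Eif3c 1.13, Eif5b 1.17, Gdf15 0.22, Ier5 0.23, Jund 0.85, mt-Nd1 1.04, mt-Nd2 1.01 and Tubb4b 1.05. Of the 87 named genes called, out of 106 named, 0 turned under the other alternatives. Turning was not counted for named genes that were not called. No paired analysis was possible because the groups compared are wells of 1 library per condition. Depth limits genes under 50 CPM, and RNA-poor wells hold fewer counts, so small differences there were not detectable.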
